A study of Mus musculus with 6 samples.

Results

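Type 2 helper T cells (Th2 cells) are the state of CD4+ T cells that directs responses to worms and allergens. The transcription factor GATA3 sets the state, IL-4 signalling reinforces it, and the cytokines IL-4, IL-5 and IL-13 are its main products. The genes of these 3 cytokines lie together in the genome. The set described here was 10 Th2 cytokine and transcription factor genes, taken as every probe set whose platform annotation gives exactly 1 gene symbol and that symbol is on the list. It found 9 probe sets of 8 genes, among 34958 probe sets with 1 symbol. They are Gata3, Gfi1 and Epas1, which encode transcription factors, and Il4, Il5, Il13, Il9 and Il24, which encode cytokines. The other 2 genes of the list matched no probe set under this rule and were not analysed here.

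The 6 arrays measured RNA of mouse CD4+ T cells from spleen and lymph nodes, cultured in vitro, with 2 arrays for each of the labels Control, RA and Ro. The title of the series names retinoic acid (RA), a metabolite of vitamin A, whereas what Ro stands for is not spelled out. Neither strain, genotype, age, dose nor number of animals is stated. The labels of the RA and Ro arrays and of Control replicate 1 state no culture conditions. Only the label of Control replicate 2 states them: 5 days with human IL2 and TGF-b1 and mouse IL-6, IL-1b, IL-23, IL-21 and TNF-a, plus blocking antibodies against IFN-gamma and against mouse IL-4, the latter at 10 ng/ml. Nothing states that the 2 arrays of a group came from separate cultures, so the spread behind each p-value may be technical only.

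Control replicate 2 stood apart. Its log2 signals correlated with those of the other arrays at 0.911 to 0.917 across 45037 probe sets, against 0.961 to 0.972 among the other 5 arrays. Every result that involves Control is therefore given with both Control arrays shown. Of 9 T cell markers, 9 lay above the 40th percentile of each array, and their summed signal ran from 26853 to 36050. The brighter Cd4 probe set was at 463 on Control replicate 2 and from 1141 to 1791 on the other arrays. Median signals, in arbitrary units of the scanner output, ran from 16.2 to 23.7. With so few arrays precision is low: an exact two-sided permutation test of 2 arrays against 2 cannot go below p = 0.333.

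The start regions of the 4 cytokine genes held in the sequence table are shown because Il4, Il13 and Il5 share a locus, with Il9, on another chromosome, beside them. All 4 had their highest signal on Control replicate 2, but the margin was small for 2 of them. Il5 was at 8.42 there and 8.06 on the next array, both below the 40th percentile, and Il4 at 49.0 and 41.1. In RefSeq the order on mouse chromosome 11 is Il4, Il13, a ribosomal protein pseudogene, Rad50 and Il5. Each stretch holds the 150 bases before a RefSeq start on build GRCm38.p6, written 5′ to 3′ on the strand of the gene. Il4 is at chr11:53618666-53618815 (minus strand, the upstream of 2 listed starts), Il13 at chr11:53634703-53634852 (minus), Il5 at chr11:53720644-53720793 (plus) and Il9 at chr13:56482258-56482407 (minus). Capitals mark matches, on either strand, to the GATA letters AGATAA or AGATAG or TGATAA or TGATAG and to the NFAT core GGAAA.
Il4: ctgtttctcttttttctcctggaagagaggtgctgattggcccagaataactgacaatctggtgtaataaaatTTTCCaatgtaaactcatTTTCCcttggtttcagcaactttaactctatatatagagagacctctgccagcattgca
Il13: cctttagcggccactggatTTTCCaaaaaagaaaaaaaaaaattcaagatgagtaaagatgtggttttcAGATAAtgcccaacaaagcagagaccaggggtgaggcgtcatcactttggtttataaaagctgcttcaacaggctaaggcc
Il5: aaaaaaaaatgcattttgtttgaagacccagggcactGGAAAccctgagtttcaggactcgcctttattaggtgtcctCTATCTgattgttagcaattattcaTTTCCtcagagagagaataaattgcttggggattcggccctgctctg
Il9: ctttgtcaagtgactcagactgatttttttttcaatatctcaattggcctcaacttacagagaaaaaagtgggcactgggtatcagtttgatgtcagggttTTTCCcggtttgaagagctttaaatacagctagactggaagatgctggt

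The Il13 and Il5 stretches each held 1 GATA match, which began at base -81 and base -72 from the start, and the Il4 and Il9 stretches held 0. The 150 bases before the other listed start of Il4 (chr11:53617339-53617488, minus strand, not printed) held 1, at base -80, so the count for Il4 depends on the start taken. At least 1 GATA match is found in 16.0% of the 32851 promoter windows of this length in the table. The NFAT core matched 2 times in Il4, 1 time in Il13, 2 times in Il5 and 1 time in Il9, and 37.6% of all windows hold it. No searched match overlapped another in these 4 stretches. A match describes the letters and shows no binding.

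**Figure D1:**
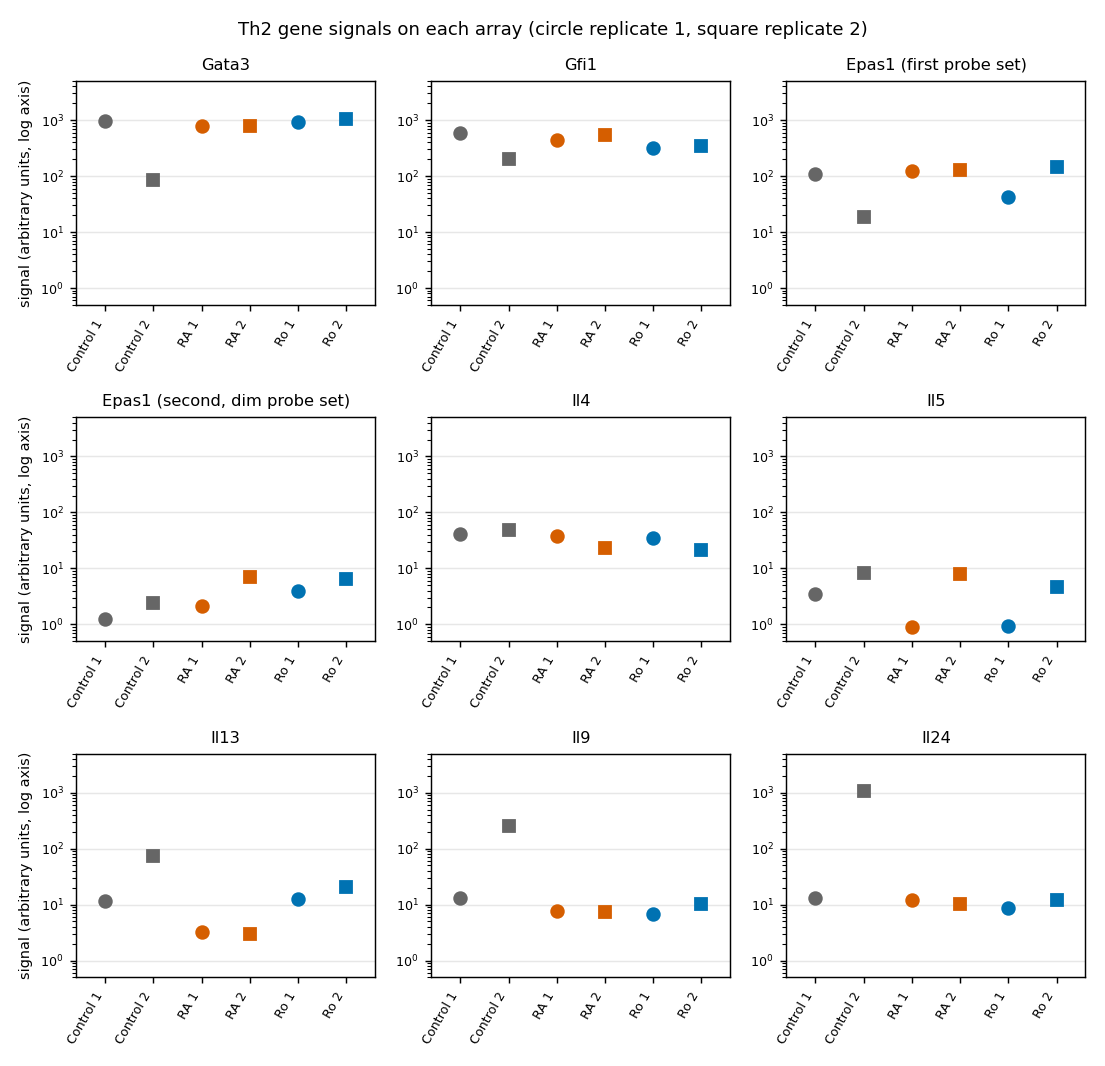
Signal (arbitrary units, log axis) of the 9 probe sets on each of the 6 arrays. Control replicate 2 (grey square) is lowest for Gata3, Gfi1 and the first Epas1 probe set and highest for Il4, Il5, Il13, Il9 and Il24, and Il13 is lower on both RA arrays (3.27 and 3.01) than on both Ro arrays (12.4 and 20.5).

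Gata3, the factor that commits CD4+ T cells to the Th2 state, had signals of 953 and 84.4 in Control, 780 and 789 in RA, and 938 and 1043 in Ro. All arrays but Control replicate 2 thus lay within a narrow band, and that array was far below it. The lowest of the other 5 arrays was 9.24-fold above Control replicate 2. The mean signal was 991 ± 74.3 (SD, n = 2) in Ro and 785 ± 6.70 (SD, n = 2) in RA. Part of this gap was general, since the median tested probe set had a log2 difference of -0.21 between RA and Ro. Relative to that median, the log2 difference of Gata3 was -0.12 (SE 0.96, adjusted p = 0.999) in the limma fit of all 6 arrays. The SE was 0.21 when only the 4 RA and Ro arrays were fitted (limma adjusted p = 0.689).

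Gfi1, a zinc finger repressor that supports the growth of Th2 cells, had signals of 581 and 205 in Control, 448 and 534 in RA, and 316 and 345 in Ro. From low to high the order was Control replicate 2, both Ro arrays, both RA arrays and Control replicate 1. The mean signal was 331 ± 20.6 (SD, n = 2) in Ro and 491 ± 61.2 (SD, n = 2) in RA, 1.49-fold higher. The log2 difference of RA minus Ro was 0.78 (SE 0.52, limma adjusted p = 0.999 on 6 arrays) and 0.78 (SE 0.26, adjusted p = 0.673 on the 4 arrays).

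Epas1, which encodes the hypoxia-inducible factor HIF-2 alpha, had 2 probe sets. The first gave 108 and 18.5 in Control, 122 and 128 in RA, and 41.6 and 148 in Ro. Ro replicates differed 3.56-fold and lay on both sides of the RA arrays, so that the groups overlapped. Its log2 difference of RA minus Ro was 0.85 (SE 0.86, limma adjusted p = 0.999), and it was 0.047 without Ro replicate 1 and 1.68 without Ro replicate 2. The second probe set was dim everywhere, from 1.24 to 7.14, and did not pass the filter on low signals, which asked for a signal above the 40th percentile of the array on at least 2 arrays.

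Il4, the cytokine that acts back on T cells to keep the Th2 state, had signals of 41.1 and 49.0 in Control, 37.3 and 23.1 in RA, and 34.3 and 21.4 in Ro. It lay above the 40th percentile on all 6 arrays and above the 60th percentile on 1, so it was measured, but dimly. The RA and Ro arrays interleaved, with replicate 1 above replicate 2 in each of these 2 groups. Both Control arrays were above the 4 others as deposited. The margin was small next to the general level of the arrays. Control replicate 1 had 41.1 and RA replicate 1 had 37.3, on arrays with median signals of 23.7 and 17.7. The log2 difference was 0.32 (SE 0.45, limma adjusted p = 0.999) for RA minus Ro, -0.65 (SE 0.45, adjusted p = 0.977) for RA minus Control and -0.95 (SE 0.45, adjusted p = 0.662) for Ro minus Control.

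Il5, which encodes the growth factor of eosinophils, was at or below the 40th percentile on all 6 arrays. Its signals were 3.46 and 8.42 in Control, 0.894 and 8.06 in RA, and 0.928 and 4.64 in Ro. All groups overlapped, the gene did not pass the filter, and no difference in it was detectable at this signal.

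Il13, the cytokine that drives mucus production and epithelial responses, had signals of 11.4 and 73.1 in Control, 3.27 and 3.01 in RA, and 12.4 and 20.5 in Ro. Both RA arrays were the lowest of the 6, both Ro arrays and Control replicate 1 lay above them, and Control replicate 2 was 3.57-fold above the next array. The mean was 16.4 ± 5.75 (SD, n = 2) in Ro and 3.14 ± 0.182 (SD, n = 2) in RA. On the RA arrays the gene was below the 40th percentile, so it passed the filter only through Control replicate 2 and the Ro arrays, and the size of its difference is uncertain. The log2 difference of RA minus Ro was -1.42 (SE 0.79, limma adjusted p = 0.999) on 6 arrays and -1.41 (SE 0.56, adjusted p = 0.666) on the 4 arrays. With a pseudocount at the median of all values it was -0.49. Among those 4 arrays the gene passed the filter only through the Ro arrays, so in that fit it had to be lower in RA. The gap was larger than the spread between replicates in either group, but it did not pass the test across all probe sets.

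Il9, a cytokine that acts on mast cells and is made by a T helper state close to Th2, had signals of 13.1 and 252 in Control, 7.69 and 7.23 in RA, and 6.71 and 10.4 in Ro. Control replicate 2 was 19.2-fold above the next array. The RA arrays lay between the Ro arrays, all 4 were below the 40th percentile, and the gene passed the filter only through Control. Its log2 difference of RA minus Ro was 0.09 (SE 1.14, limma adjusted p = 0.999).

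Il24, a cytokine of the IL-10 family, showed the widest gap between Control replicate 2 and the other arrays among the 9 probe sets. Its signals were 13.0 and 1068 in Control, 12.0 and 10.4 in RA, and 8.63 and 12.0 in Ro. Control replicate 2 was 82.0-fold above the next array, while the other 5 arrays lay between 8.63 and 13.0. The RA and Ro arrays overlapped, with a log2 difference of 0.32 (SE 1.65, limma adjusted p = 0.999).

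RA was compared with Ro to see which of these genes differ between cultures with those labels. Of the 7 members that passed the filter, 0 were called in the limma fit of 6 arrays, which called 0.0% of 29531 probe sets. At an unadjusted p under 0.05 there were 496 probe sets, none of them a member. With only the 4 RA and Ro arrays fitted, 0 of 6 members were called, since Il9 did not pass the filter there, against 0.043% of 27900 probe sets. The latter are 12 probe sets, a count that rested on single arrays: it was 0 when either RA array was left out, 573 without Ro replicate 1 and 423 without Ro replicate 2. By a description without a test, a log2 difference of at least 1 with no overlap after each array was centred on its median, 1 member was lower in RA (Il13), as were 1.71% of all tested probe sets. Il13 was below the 40th percentile on both RA arrays and passed the filter only through Control replicate 2 and the Ro arrays. Higher in RA by that description were 0 members and 2.56% of probe sets. Of the 7 members, 5 lay above and 2 below the median probe set, and the median over the members was 0.32. This lean depends partly on subtracting that median probe set, which was at -0.21. Before the subtraction Il9 was at -0.13, and Il4 and Il24 were each at 0.11. The 0.32 is the value of Il24, which was dim on the RA and Ro arrays (8.63 to 12.0).

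**Figure D2:**
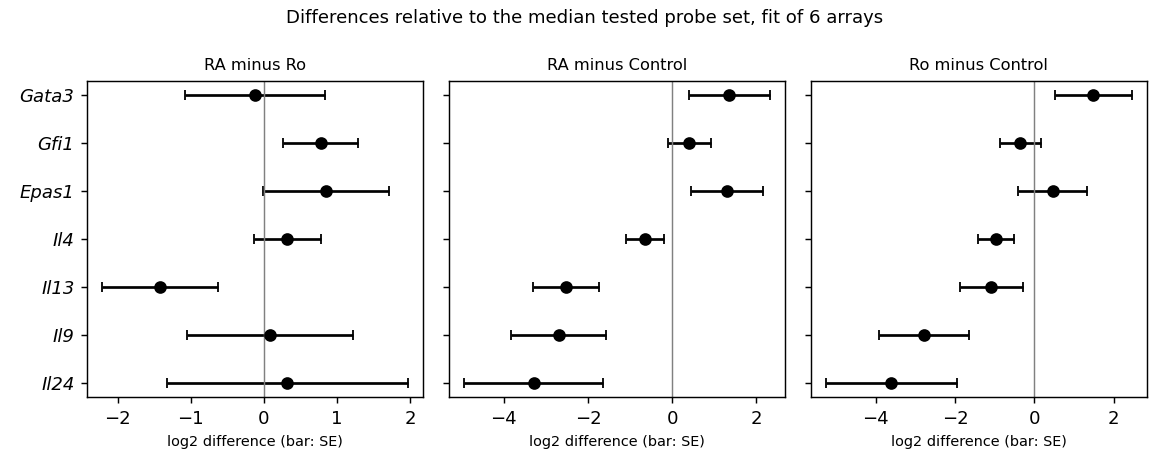
Log2 difference, relative to the median tested probe set, of the 7 genes that passed the filter, from the limma fit of 6 arrays; points are estimates and bars the SE. For RA minus Ro the points run from -1.42 (Il13) to 0.85 (Epas1), and the points for Il24 and Il9 against Control are far below 0 with wide bars.

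In the comparisons with Control, which ask how RA and Ro cultures differ from cultures labelled Control, the 2 Control arrays decided the values. For RA minus Control the log2 differences were -3.29 (SE 1.65) for Il24, -2.70 (SE 1.14) for Il9, -2.52 (SE 0.79) for Il13 and 1.36 (SE 0.96) for Gata3, each with a limma adjusted p of 0.977. For Ro minus Control they were -3.60 (SE 1.65), -2.77 (SE 1.14), -1.09 (SE 0.79) and 1.49 (SE 0.96), with limma adjusted p values of 0.662, 0.662, 0.716 and 0.662. Neither fit of 6 arrays called any probe set (0.0% in each), and 0.0% were called in each fit restricted to the 2 groups. At an unadjusted p under 0.05, 535 probe sets, 1 of them a member (Il13), stood out for RA minus Control, and 1201 probe sets with 0 members for Ro minus Control. Both comparisons share the Control arrays.

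By the description without a test, Epas1 was higher in RA than in Control, as were 3.12% of probe sets, and Il13 and Il9 were lower, as were 3.21%. Neither of the latter was above the 40th percentile on an RA array, and Il9 passed the filter only through Control, so it had to be lower in RA. Between Ro and Control, Gata3 was higher, as were 3.38% of probe sets, and Il24 and Il9 were lower, as were 5.5%, where Il9 again had to be lower. Each of these counts includes the array with the stated culture conditions. For Gata3 the centring also decides the call, since the Ro array at 938 was below Control replicate 1 at 953 as deposited.

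With Control replicate 1 left out, the comparison is with Control replicate 2 alone, which is then assumed to vary like the other groups. The median probe set of that fit, subtracted below, was at 0.36 for RA minus Control and 0.55 for Ro minus Control. The tests used the differences before that subtraction. For RA minus Control these were 2.57 for Epas1, 1.24 for Gfi1 and -0.68 for Il4. For RA minus Control, 15.1% of 28930 probe sets were called in limma, and 5 of the 6 members tested were among them. Il24 had a log2 difference of -6.60 and Il13 of -3.99. Gata3 had 2.81 (SE 0.29, adjusted p = 9.60e-04), Epas1 2.21 (SE 0.65, adjusted p = 0.0358) and Gfi1 0.88 (SE 0.32, adjusted p = 0.0390), whereas Il4, at -1.04 (SE 0.49), did not pass (adjusted p = 0.380). For Ro minus Control, 24.9% were called, and 3 of the 6 members passed: Il24 at -6.89, Gata3 at 2.96 and Il13 at -2.55. Against that array, then, Il24 and Il13 were lower and Gata3, Epas1 and Gfi1 higher in RA. In this fit too, Il13 passed the filter only through Control replicate 2 and the Ro arrays. It was below the 40th percentile on both RA arrays, so its call as lower in RA rests on arrays where it was high. With Control replicate 2 left out instead, 0 probe sets were called in either comparison. The differences of RA minus Control then were 0.02 for Il24, -0.08 for Gata3 and -0.05 for Gfi1, whereas Il13 (-1.04), Epas1 (0.40) and Il4 (-0.25) kept their direction. For Ro minus Control, Il13 (0.35) and Epas1 (-0.48) turned, and Il24 (-0.33), Il4 (-0.60), Gfi1 (-0.86) and Gata3 (0.01) kept theirs.

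Cytokine genes of other helper states were also high on Control replicate 2. Il17a, the signature cytokine of Th17 cells, was at 1230 on Control replicate 2 and from 8.01 to 18.9 on the other arrays, and Ifng, that of Th1 cells, at 2054 and from 3.15 to 85.5. The high signals of Il24, Il9 and Il13 were therefore found on the array that also had the highest signals of those cytokines and the lowest signal of Gata3. Between RA and Ro, Tbx21, the Th1 factor, had 223 and 299 in Ro and 36.8 and 185 in RA.

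Among the other genes of the Th2 pathway, a list of 44 receptors, signalling genes, factors and cytokines, 36 passed the filter. None was called for RA minus Ro, RA minus Control or Ro minus Control in the limma fit of 6 arrays or in the fits of the groups compared, and 3, 5 and 2 of the 36 had an unadjusted p under 0.05 in the 6-array fit, as did 1.68%, 1.81% and 4.07% of all tested probe sets. For RA minus Ro, 14 lay above and 22 below the median probe set, with a list median of -0.15. The quartiles of all tested probe sets lay at -0.24 and 0.26. For RA minus Control the list median was -0.28 and for Ro minus Control -0.18, with 23 and 20 members below the median probe set.

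The 4 tested list genes with the largest differences between RA and Ro were Ccr8, Ccr4, Runx3 and Il17rb. Ccr8, a chemokine receptor of Th2 and regulatory T cells, had signals of 26.4 and 21.8 in RA, 152 and 49.5 in Ro, and 52.4 and 93.1 in Control (log2 difference of RA minus Ro -1.52, SE 0.60). Runx3, a factor that silences Il4 in Th1 cells, had 336 and 409 in RA, 913 and 972 in Ro, and 518 and 814 in Control (-1.12, SE 0.36). For both genes the RA arrays were the lowest of the 6.

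Ccr4, another Th2-associated chemokine receptor, had 53.6 and 21.8 in RA, 41.9 and 2.75 in Ro, and 111 and 156 in Control. The RA and Ro arrays overlapped, and both Control arrays were the highest. Il17rb, the IL-25 receptor chain, had 23.6 and 25.9 in RA, 11.7 and 16.6 in Ro, and 20.1 and 12.6 in Control. None of these 4 genes passed (limma adjusted p = 0.999 for each).

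By the 2-fold description without overlap, Ccr8 and Runx3 were the 2 list genes lower in RA than in Ro (1.71% of all probe sets), and 0 were higher (2.56%). Between RA and Control, 6 list genes were lower (3.21% of all probe sets): Ccr4, Ccr8, Ecm1, Irf4, Junb and Maf. Ecm1, which encodes a matrix protein that Th2 cells make to leave lymph nodes, had 2116 and 5638 in Control, 1127 and 1151 in RA, and 2526 and 2180 in Ro. Junb, an activator of Il4, had 836 and 2176 in Control, 553 and 564 in RA, and 620 and 953 in Ro. In both genes the RA arrays were the lowest and Control replicate 2 the highest. Nfatc1 was the 1 list gene higher in RA than in Control (3.12% of all probe sets), with 829 and 139 in Control and 798 and 1029 in RA, a separation that appears only after centring. These values are of its brightest probe set, and its other tested probe sets were mixed. On one of them Control replicate 1, at 772, was above RA (374 and 461) and Ro (408 and 537). On another both RA arrays (56.5 and 97.1) were above both Control arrays (52.0 and 49.3). Between Ro and Control, 1 list gene was lower (Ccr4, with 5.5% of all probe sets) and 1 higher (Nfatc1, with 3.38%).

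Against Control the largest differences among the 36 list genes that passed the filter were those of Il21, Maf, Pparg, Ccr4 and Csf2. Apart from Ccr4 they came from Control replicate 2. List genes that did not pass were not ranked, among them Il10, with 11.3 and 612 in Control and from 2.30 to 10.9 in RA and Ro. Maf, a factor that activates Il4, had signals of 93.9 and 1175 in Control, 54.1 and 60.5 in RA, and 88.5 and 71.0 in Ro. Il21, a cytokine of follicular helper and Th17 cells, had 2.97 and 1566 in Control and from 0.491 to 12.4 on the other 4 arrays. Csf2, the gene of GM-CSF, had 38.5 and 481 in Control and from 17.5 to 45.4 elsewhere. Pparg, a nuclear receptor found in Th2 cells, had 0.935 and 68.8 in Control and at most 12.0 elsewhere.

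**Figure D3:**
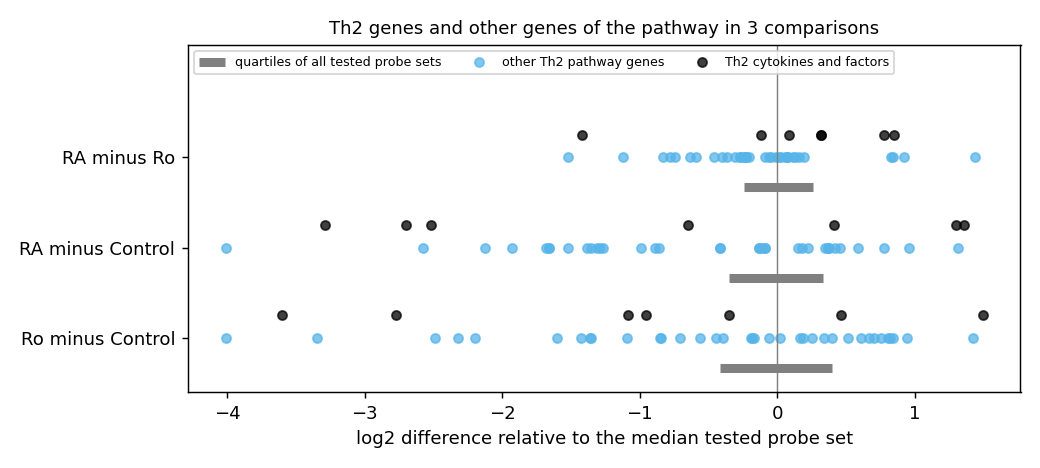
Log2 differences, relative to the median tested probe set, of the 7 Th2 cytokine and factor genes (black) and 36 other Th2 pathway genes (blue) in 3 comparisons; grey bars span the quartiles of all tested probe sets. For RA minus Ro the blue points surround 0 (median -0.15), and against Control both sets include genes below -2.

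Mast cells and basophils also transcribe Th2 cytokine genes, and the summed signal of their markers had the same order of the RA and Ro groups as Il13. That order was not particular to them, since the NK and CD8 T cell markers given below had it too. Of 13 mast cell and basophil markers with a probe set 11 were tested. Of these, 8 met the description of a 2-fold lower level in RA without overlap, as did 1.71% of all probe sets. The summed signal of the 13 was 4294 and 184 in Control, 6608 and 4294 in Ro, and 1743 and 1536 in RA. In the limma fit of 6 arrays 0 of the 11 were called. With limma fitted to RA and Ro arrays alone 2 passed, as did 0.043% of all probe sets, and 0 probe sets passed in that fit when either RA array was left out. The 2 were Cma1, the mast cell chymase gene, at -3.39 (SE 0.29, adjusted p = 0.0239) and Tph1, which encodes an enzyme of serotonin synthesis, at -3.65 (SE 0.34, adjusted p = 0.0287). On Control replicate 2, where Il13 was highest, 11 of the 13 markers were at or below the 40th percentile of the array, Cma1 (3.30), Mcpt8 (6.72) and Fcer1a (4.87) among them, whereas Kit was at 120. The part of these markers in the Il13 difference between RA and Ro was not tested. In bulk RNA, fewer cells of a type and less RNA per cell cannot be told apart.

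**Figure D4:**
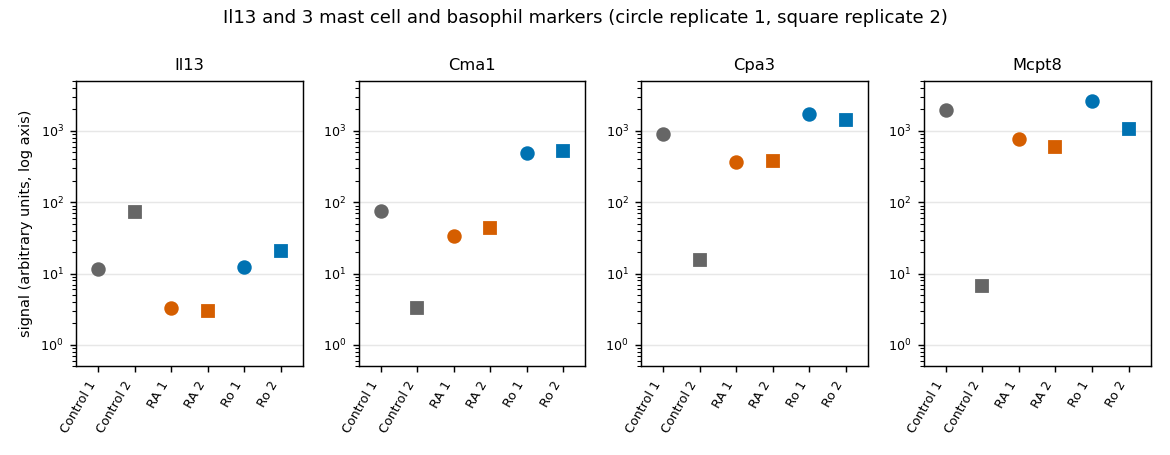
Signal (arbitrary units, log axis) of Il13 and of the mast cell and basophil genes Cma1, Cpa3 and Mcpt8 on each array. All 4 genes are higher on both Ro arrays than on both RA arrays, and on Control replicate 2 Il13 is at its highest (73.1) while the 3 markers are at their lowest.

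The 7 eosinophil and neutrophil markers had summed signals of 447 and 136 in Ro and 349 and 254 in RA, and the 5 B cell markers 54.6 and 129 in Ro and 78.8 and 107 in RA. Within the former, Prg2 (24.6 and 24.2 in Ro, 50.2 and 62.0 in RA) and Siglecf (3.78 and 7.82 in Ro, 31.8 and 8.45 in RA) met the description of a 2-fold higher level in RA without overlap, as did 2.56% of all probe sets, and Siglecf was dim. The 7 myeloid and dendritic cell markers had 953 and 347 in Ro and 466 and 434 in RA. The 5 NK and CD8 T cell markers had 579 and 415 in Ro, 154 and 354 in RA, and 299 and 978 in Control. All 4 of them that were tested lay below the median probe set for RA minus Ro. Cd8a and Klrk1 met the description of a 2-fold lower level in RA without overlap, as did 1.71% of all probe sets. Both were highest on Control replicate 2 (236 and 627), as Il13 was, and Cd8a was at or below the 40th percentile on both RA arrays. The part of these marker lists in the values of the Th2 genes was not tested.

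Each gene's nearest profile was sought among 12989 genes by the root mean square difference of log2 profiles over the 6 arrays, with arrays and genes centred. Il13 was nearest to Ptgfrn (0.289), Cd86 (0.309) and Selp (0.373), against a median over all genes of 1.37. Cd86, a costimulatory ligand, had 25.9 and 27.8 in RA, 59.8 and 65.9 in Ro, and 39.1 and 265 in Control. It shares the order of groups with Il13 because it was chosen for its likeness. Il24 was nearest to Timp1 (0.309), Il2 (0.324) and Il17a (0.392), each of them high on Control replicate 2 alone. Il4 was nearest to Metrnl (0.0543), Rps4l (0.0786) and Stau2 (0.134), and Gata3 to Gm13238 (0.104), Tmem64 (0.112) and Adgre5 (0.121). Over 6 arrays of which 1 stands apart, such likeness mostly describes that array for Gata3 and Il24. Il13 and its 3 nearest genes were also highest on that array (Ptgfrn 496, Cd86 265, Selp 293), so their likeness does not rest on RA and Ro alone.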

How the data were processed

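The submitters' processing notes name MAS5 as the tool with which the authors made the deposited intensity values, 1 per probe set and array. All values are above 0 and were read as linear. The scaling target is not stated. Groups and replicate numbers came from the sample titles, and RO and Ro were taken as 1 group. Gene symbols are those of GEO's platform annotation, and 64 control probe sets were left out. Probe sets above the 40th percentile of their array on at least 2 arrays were tested.

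Differences were fitted in R 4.3.3 with limma 3.58.1 (eBayes with an intensity trend, two-sided) on log2(signal + 2.99), the pseudocount being the 20th percentile of all values, which understates differences of dim genes. The fit used all 6 arrays with 3 residual degrees of freedom. Benjamini-Hochberg adjustment ran over all probe sets tested, with a threshold of 0.05. Log2 differences are given relative to the median probe set of the same fit, but p-values test the difference before that subtraction. With 6 arrays that median was -0.21 for RA minus Ro, 0.09 for RA minus Control and 0.29 for the third comparison. Signals are as deposited.

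A gene stood for by several probe sets used the brightest tested one, leaving out those with names ending in _x_at where the gene had another. All members were named. Of the other pathway genes the 4 largest differences a comparison were named, and of the markers the mast cell and basophil genes. The 3 nearest genes were to be named for Gata3, Il4, Il13, Il24 and Il5, the last of which was not tested. Il17a, Ifng and Tbx21 were chosen with their values in view. The members and lists were chosen with earlier results of these data known. The fit was tested on simulated data with the same spread for every probe set and no array set apart. Differences were added only to bright probe sets, so the check does not cover dim members. Alternatives were another pseudocount, quantile normalization, other filters, no trend, a replicate block, fewer groups and leaving out each array.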

Additional observations from a re-analysis of the deposited data

How the results depend on the processing

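The calls depended on which arrays entered. For RA minus Ro, 0 probe sets were called with 6 arrays and 12 with only the groups compared, and leaving out each array gave 0 to 12. For RA minus Control leaving out an array gave 0 to 4370 calls and for Ro minus Control 0 to 7207, the highest in each case without Control replicate 1. With the replicate number as a block the 6-array fits again called 0. With only RA and Ro arrays fitted, a block, chosen after seeing the data, gave 106 calls, and leaving out an array gave 0 to 573. Deviations of same-numbered arrays correlated at 0.25 between RA and Ro but at 0.01 and -0.03 with Control, so the numbers were not taken as pairs. Another pseudocount, filter or normalization, or no intensity trend, moved no count of calls from 0. Of the 274 values of members under alternatives, 254 kept direction and call, 8 passed the threshold (all without Control replicate 1) and 12 changed sign. Il9 for RA minus Ro turned to -0.058 with quantile normalization. The other 11 came from leaving out 1 array, and the range over such fits is given for each gene. For RA minus Ro, Il4 ran from -0.056 to 0.70, turning without RA replicate 1 or Ro replicate 2, and Il9 from -0.074 to 0.27, turning without RA replicate 1 or Ro replicate 1. For RA minus Control, Gata3 ran from -0.083 to 2.81, Il24 from -6.60 to 0.020 and Gfi1 from -0.050 to 0.88, each turning without Control replicate 2. For Ro minus Control, Il13 ran from -2.55 to 0.35 and Epas1 from -0.48 to 1.39, turning without Control replicate 2 (Epas1 also without Ro replicate 2). Gfi1 there ran from -0.86 to 0.13, turning without Control replicate 1. Epas1 for RA minus Ro kept its sign but ran from 0.047 to 1.68 when 1 array was left out. The cause was not tested. No member had more than 1 tested probe set, so a mean over probe sets was not run. Dim signal limits Il5, Il9 and Il13.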
